A study of Mus musculus with 3 samples.

Results

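The Bcl2 family genes that decide between survival and mitochondrial death of a cell were followed through the cell types of MYCN-driven mouse neuroblastoma. The members are 10 genes taken by symbol from the 31053 symbols of the raw count matrices. They comprise the survival genes Bcl2, Bcl2l1, Mcl1, Bcl2a1b and Bcl2a1d, the pore-forming death genes Bax and Bak1, and the BH3-only death genes Bcl2l11, Pmaip1 and Bbc3. Whole tumors of 3 TH-MYCN mice, heterozygous for a transgene in which the tyrosine hydroxylase promoter drives MYCN, were enzymatically dissociated, 1 tumor per mouse, when the mice of tumors 1, 2 and 3 were 62, 79 and 63 days old. All 3 form a single group with no treatment and no normal tissue beside them, so that comparisons run between the cell classes of these tumors. Single-cell RNA was captured in droplets, where each cell carries a barcode and each captured molecule a unique molecular identifier (UMI).

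Survival proteins of the family hold the outer membrane of the mitochondrion closed by binding their death-promoting relatives. Bax and Bak1, once released, form pores through which cytochrome c escapes and starts the caspases. BH3-only proteins sense stress: Bim, encoded by Bcl2l11, responds to loss of growth factors and binds every survival protein, Puma, encoded by Bbc3, is a p53 target with the same breadth, and Noxa, encoded by Pmaip1, binds mainly Mcl1 and A1. Mcl1 is a short-lived protein on which neutrophils depend, A1, encoded by the Bcl2a1 copies, is an NF-kB target of hematopoietic cells, and Bcl2 is the survival protein of resting lymphocytes. MYC proteins sensitize cells to this pathway, and high BCL2 is a known dependency of human neuroblastoma.

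The 5650 kept cells (1914, 1221 and 2515 per tumor, of 13622 barcodes) formed 22 clusters, and 5308 of them fell in 12 classes named by markers. Tumor-like cells carried 7 to 9 of 10 sympathoadrenal markers and numbered 3141. Macrophage-like cells (943) carried 3 to 8 of 8 markers, with 2 of their 5 clusters resting on 3, and neutrophil-like cells (313) carried 8 of 8. The 2 clusters resting on 3 markers were led by Cd5l and Mmp12 and by Lipg and Cxcl13. They held 34 and 31 of the 114 macrophage-like cells of tumor 2, and 64 and 16 of the 186 of tumor 3. T cell-like (247), B cell-like (245), plasmacytoid dendritic-like (116), endothelial-like (95), cancer-associated fibroblast-like (CAF-like, 86), NK cell-like (47), erythroid-like (27), mesothelial-like (26) and plasma cell-like (22) cells carried all of their markers. Cells stood apart by tumor in depth, with medians of 4282.5, 1594 and 1816 UMIs, and tumors 1 and 2 shared 3 kept barcodes, tumors 2 and 3 shared 1 and tumors 1 and 3 shared 0. Raw counts were summed over the cells of a class in a tumor where there were at least 10, which gave 26 sums of 23655 to 6092048 UMIs. Levels are UMIs per 1000000 UMIs of a sum (CPM), so that they are shares of a class's RNA, and are compared between classes and not between genes. NK cell-like, mesothelial-like and plasma cell-like cells gave a sum in tumor 1 only and erythroid-like cells in tumor 3 only.

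A1 has several near-identical gene copies on mouse chromosome 9, and the counts of Bcl2a1b and Bcl2a1d are uncertain for that reason. In the genome build GRCm38 with GENCODE M21, Bcl2a1b lies at chr9:89199209-89207827 on the plus strand and Bcl2a1d at chr9:88723285-88731914 on the minus strand. The last coding exon is shown for 3 copies because it is the coding part nearest the 3′ end, which this 3′ protocol reads. The capital marks the only base of the 96 at which they differ.
Bcl2a1a, chr9:88962172-88962267, plus strand: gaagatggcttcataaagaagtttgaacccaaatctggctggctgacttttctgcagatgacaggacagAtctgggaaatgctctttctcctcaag
Bcl2a1b, chr9:89207582-89207677, plus strand: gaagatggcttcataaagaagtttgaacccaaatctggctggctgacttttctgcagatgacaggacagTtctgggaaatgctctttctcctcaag
Bcl2a1d, chr9:88723437-88723532, minus strand: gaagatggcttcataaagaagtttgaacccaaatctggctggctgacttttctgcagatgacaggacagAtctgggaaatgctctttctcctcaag
Over whole transcripts, 93.9% of aligned bases were identical between Bcl2a1b and Bcl2a1d, and 82.1% and 80.7% of the 60-base windows in the last 500 bases of these genes recurred in another gene. For Bax the share was 15.6%, and for the other members 0. A molecule counted for 1 A1 copy could therefore stem from another. How many A1 molecules went uncounted because they matched several copies was not measured, so that a sum over the copies is uncertain too. Bak1 overlaps Ggnbp1 on the opposite strand, and Bax overlaps Gm45808 on its own strand.

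**Figure D1:**
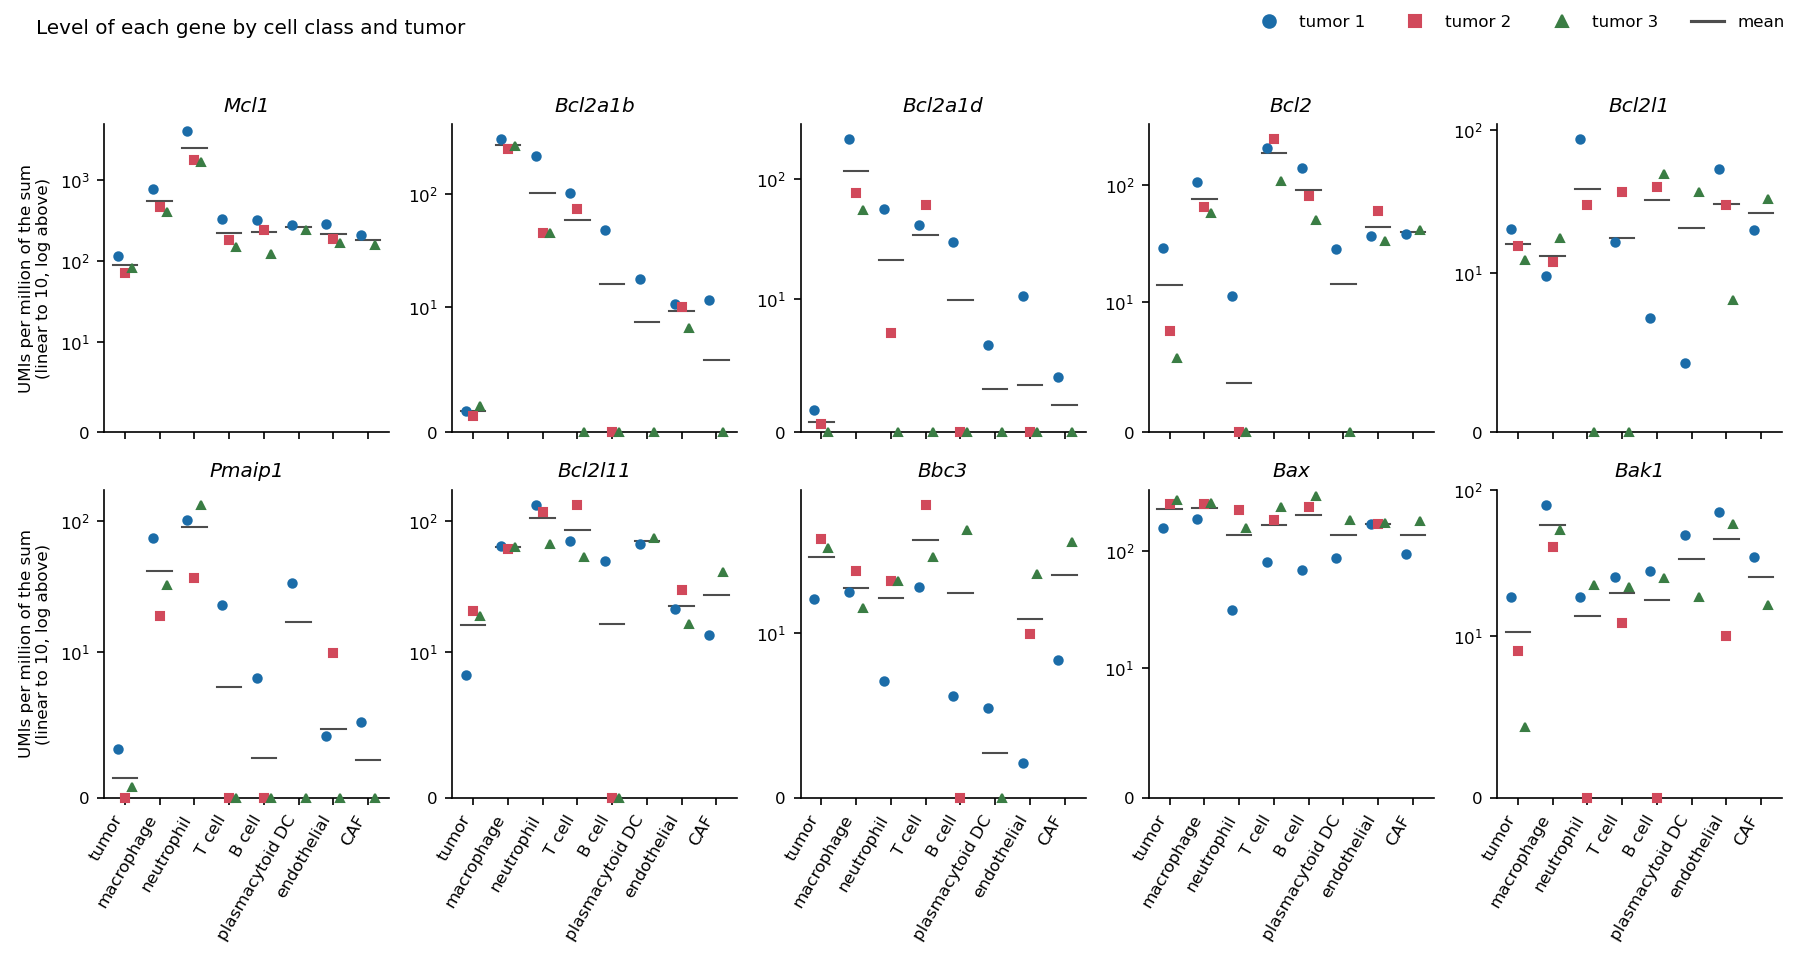
Levels of the 10 genes by cell class, with 1 panel per gene. Points are the raw counts of a tumor's cells of a class in CPM (axis linear to 10 and log above), and the symbols mark tumors 1, 2 and 3. Mcl1 stood highest in neutrophil-like cells of all 3 tumors (1679.9 to 3951 CPM), and both A1 copies in macrophage-like cells.

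Mcl1 (chr3:95658788-95663176, plus strand) was highest in neutrophil-like cells and lowest, of the classes with at least 2 sums, in tumor-like cells. Its neutrophil-like level was 3951, 1776 and 1679.9 CPM in tumors 1, 2 and 3 (2793, 239 and 75 UMIs), with a mean of 2469 ± 1285 (SD, n = 3). Macrophage-like cells followed at 774, 463 and 398 CPM, while tumor-like cells had 115, 72.1 and 81.4 CPM. The 3 classes did not overlap in any tumor, and tumor 1 was the highest in each. Among the other classes with at least 2 sums, neighbors in the order of means did not differ beyond their spread, from plasmacytoid dendritic-like cells (261 ± 27.4, n = 2) through B cell-like (227 ± 97.5), T cell-like (223 ± 98.0) and endothelial-like cells (213 ± 62.5, n = 3 each) to CAF-like cells (182 ± 36.7, n = 2). Erythroid-like cells had 0 Mcl1 UMIs of 23655, which allows up to 127 CPM.

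A class was tested against the unweighted mean of the other 11 with edgeR's quasi-likelihood test on the summed counts. Because 4 of these 11 rest on a single sum, and many members are at 0 UMIs in the erythroid-like one, the results of a class are also given against only the 7 other classes found in at least 2 tumors, an alternative chosen after seeing the data. Mcl1 was higher in neutrophil-like cells by a log2 fold change of 4.74 (SE 0.49, adjusted p = 1.58e-07), and by 4.06 (SE 0.40, adjusted p = 7.99e-08) against the 7. The call held under each of the 17 alternatives tried, with log2 fold changes of at least 3.64. In macrophage-like cells Mcl1 was at 1.93 (adjusted p = 0.0517), which missed the threshold of 0.05, and at 1.05 against the 7 (adjusted p = 0.208). It passed in 7 of 17 alternatives, among them the tumor as a replicate block (2.15, adjusted p = 5.14e-05). In tumor-like cells the log2 fold change was -1.10 with no call against all 11 classes, but Mcl1 was lower against the 7 (-2.37, SE 0.61, adjusted p = 0.00711).

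Cell by cell the order was the same. After each cell was thinned to 500 UMIs, Mcl1 had a UMI in 61.8% of neutrophil-like cells (mean of 3 tumors, 45.5% to 81.8%), in 22.3% of macrophage-like cells (16.1% to 31.6%) and in 5.69% of tumor-like cells (3.84% to 9.06%). Without thinning the shares were 90.02%, 65.8% and 14.3%. The neutrophil-like and macrophage-like shares did not overlap between tumors after thinning, and overlapped without it.

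The summed level of 10 listed immediate early and stress genes, which respond to tissue dissociation, was also highest in neutrophil-like cells. It was 15057, 7727 and 8131 CPM there. In macrophage-like cells it was 3829 to 6226 CPM and in tumor-like cells 542 to 1523 CPM, while the lone mesothelial-like sum had 8233 CPM with Mcl1 at 287 CPM. By the same test Fos, Junb, Atf3, Ier2, Dusp1 and Egr1 (6 of 10) were higher in neutrophil-like cells, where 12.9% of all genes were higher. Jun (0.21), Fosb (0.68), Hspa1a (-1.52) and Hspa1b (-1.89) were not called there. In macrophage-like cells Atf3 (2.67) and Hspa1a (2.88) were higher. Mitochondrial genes gave 0.774% to 1.71% of the UMIs of neutrophil-like cells and 2.76% to 4.85% of those of tumor-like cells. The part of stress and of RNA quality in the Mcl1 level was not tested.

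The A1 copies were highest in macrophage-like cells. Bcl2a1b was at 304, 246 and 264 CPM there, a mean of 271 ± 29.6 (SD, n = 3), and at 216, 44.6 and 44.8 CPM in neutrophil-like cells. Tumor-like cells had 1, 2 and 8 Bcl2a1b UMIs in 592143, 1540302 and 3868090. Macrophage-like cells were the highest class in all 3 tumors, and the neutrophil-like level rested on tumor 1, since tumors 2 and 3 held 6 and 2 UMIs. Bcl2a1d was at 217, 76.4 and 56.0 CPM in macrophage-like cells and at 56.6, 7.43 and 0 CPM in neutrophil-like cells (40, 1 and 0 UMIs), again with no overlap within a tumor.

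Against the other 11 classes, Bcl2a1b was higher by a log2 fold change of 4.89 (SE 0.71, adjusted p = 3.35e-05) and Bcl2a1d by 4.64 (SE 0.75, adjusted p = 1.19e-04) in macrophage-like cells. Against the 7 classes, the values were 3.86 (adjusted p = 2.31e-05) and 3.89. In neutrophil-like cells Bcl2a1b was higher by 4.15 (SE 0.79, adjusted p = 4.41e-04), a call lost in 2 of 17 alternatives, without tumor 1 (4.42, adjusted p = 0.0568) and with limma on raw sums (2.63, adjusted p = 0.108). Bcl2a1d was higher by 3.11 (SE 0.9993, adjusted p = 0.0389), a call lost in 4 of 16 alternatives, among them DESeq2 (adjusted p = 0.199). In tumor-like cells both copies were lower against the 7 classes, Bcl2a1b at -4.66 (SE 0.99, adjusted p = 0.00251) and Bcl2a1d at -5.34 (SE 1.19, adjusted p = 0.00310). These fitted values depend on the prior count, because 0 to 8 UMIs per tumor stand behind them. In T cell-like cells neither was called in the reported fit, and both were higher with the block, at 2.69 each (adjusted p = 0.0227 for Bcl2a1b and 0.0289 for Bcl2a1d), and without the filter on low counts.

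Bcl2 (chr1:106538178-106714274, minus strand) was highest in T cell-like and NK cell-like cells. T cell-like cells had 203, 244 and 108 CPM (160, 20 and 10 UMIs), against 139, 79.9 and 49.5 CPM in B cell-like cells (135, 2 and 2 UMIs) and 105, 64.4 and 57.5 CPM in macrophage-like cells. T cell-like cells exceeded both in each tumor, while the B cell-like and macrophage-like levels overlapped. The highest single level, 557 CPM (97 UMIs), was that of the NK cell-like sum of tumor 1. Tumor-like cells had 28.7, 7.79 and 5.69 CPM (17, 12 and 22 UMIs). Neutrophil-like cells held 8 Bcl2 UMIs in tumor 1 (11.3 CPM) and 0 in tumors 2 and 3, which allows up to 22.3 and 67.2 CPM. Bcl2 was not called there in the reported fit and was called lower in 5 of 17 alternatives.

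The T cell-like level of Bcl2 was higher than the mean of the other 11 classes by 2.62 (SE 0.62, adjusted p = 0.0198) and than that of the 7 by 2.43 (SE 0.48, adjusted p = 0.00396). The call was lost in 6 of 16 alternatives, with DESeq2 (2.07, adjusted p = 0.229), with limma on raw sums (adjusted p = 0.107), at clustering resolutions of 0.5 and 1.5 (adjusted p = 0.0837 and 0.0713), and without tumor 2 (2.45, adjusted p = 0.196) or tumor 3 (1.99, adjusted p = 0.0841). In tumor-like cells Bcl2 was lower against the 7 classes (-2.26, SE 0.65, adjusted p = 0.0138), with no call against all 11 (-1.59). In macrophage-like cells it was called in 3 of 17 alternatives, with the block at 1.68 (adjusted p = 0.0109), with the block against the 7 classes, and without tumor 1 (3.46, adjusted p = 0.00764). After thinning to 500 UMIs, 9.36% of T cell-like cells had a Bcl2 UMI against 0.640% of tumor-like and 0.565% of neutrophil-like cells.

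Bcl2l1 (chr2:152780668-152831728, minus strand), which encodes Bcl-xL, had UMIs in 10 of the 12 classes. Neutrophil-like cells had 86.3, 29.7 and 0 CPM (61, 4 and 0 UMIs), endothelial-like cells 53.4, 29.9 and 8.29 CPM, and tumor-like cells 20.3, 15.6 and 12.4 CPM. Class means ran from 11.5 to 38.7 CPM in these 10, and neighbors in this order overlapped between tumors. Bcl2l1 was higher in neutrophil-like cells by 3.41 (SE 0.75, adjusted p = 0.00218) and by 2.29 (SE 0.54, adjusted p = 0.00402) against the 7 classes. The level rested on tumor 1, and with limma on log2 CPM the difference was 0.88 (adjusted p = 0.553).

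**Figure D2:**
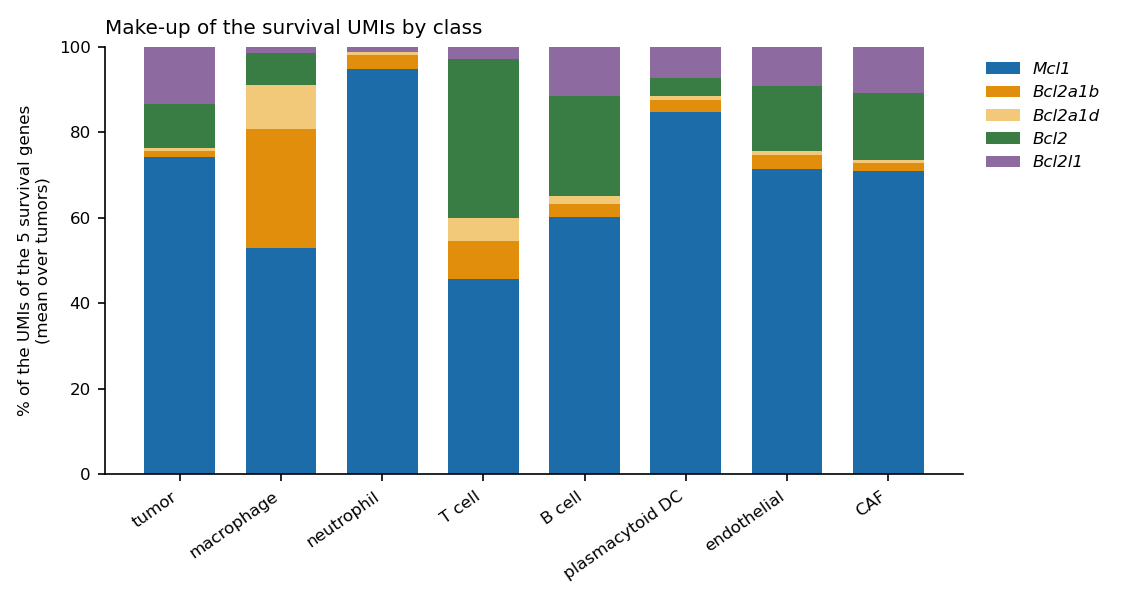
Make-up of the survival transcripts by class. Stacked bars give the mean percent of the UMIs of Bcl2, Bcl2l1, Mcl1, Bcl2a1b and Bcl2a1d that each gene contributed, over the tumors with a sum. Mcl1 filled 94.8% of the neutrophil-like bar, while Bcl2 filled 37.2% of the T cell-like bar.

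The make-up of the survival transcripts is given as a description, with no test. Among the UMIs of the 5 survival genes, Mcl1 contributed 94.8% ± 3.07 (SD, n = 3) in neutrophil-like cells, 74.3% ± 5.74 in tumor-like cells, 53.0% ± 2.48 in macrophage-like cells and 45.6% ± 14 in T cell-like cells. In macrophage-like cells Bcl2a1b added 27.8% ± 5.90 and Bcl2a1d 10.4% ± 4.37. The Bcl2 share was 37.2% ± 6.997 in T cell-like cells and 7.39% in macrophage-like cells, and 59.5% in the lone NK cell-like sum, where Mcl1 had 25.2%. In tumor-like cells Bcl2l1 gave 13.4% ± 2.21. Genes differ in how well the protocol captures them, so that these percents are compared between classes and not between genes.

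Of the pore-forming genes, Bax (chr7:45461697-45466898, minus strand) had UMIs in every class and was called in 0 of the 8 tested, 0 also with DESeq2, and 2 had an unadjusted p under 0.05 (macrophage-like and tumor-like cells). Macrophage-like cells had 188, 251 and 255 CPM, and tumor-like cells 157, 252 and 273 CPM (93, 388 and 1057 UMIs). These overlapped, and so did B cell-like (202 ± 119, SD, n = 3) and T cell-like cells (167 ± 79.8). Endothelial-like cells (171 ± 2.97, 168.7 to 174.2 CPM) lay within the tumor-like range and below the macrophage-like one. Neutrophil-like cells ran from 31.1 CPM in tumor 1 to 223 CPM in tumor 2. For tumor-like cells the log2 fold change was 0.80 (adjusted p = 0.0731), close to the median of 0.67 over all genes tested in that contrast. Bax was called higher in macrophage-like cells in 2 of 17 alternatives, both with the block (0.80, adjusted p = 0.0343, with all classes).

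Bak1 (chr17:27019810-27029009, minus strand), the other pore-forming gene, had no call in the reported fit either. It was at 79.4, 40.6 and 53.1 CPM in macrophage-like cells, at 70.5, 9.97 and 58.1 CPM in endothelial-like cells and at 18.6, 9.09 and 4.39 CPM in tumor-like cells (11, 14 and 17 UMIs). The macrophage-like level exceeded the tumor-like one in each tumor, while the endothelial-like level overlapped both. Against the 7 classes Bak1 was lower in tumor-like cells (-2.11, SE 0.62, adjusted p = 0.0147), where 15.3% of all genes were lower. In macrophage-like cells it stood at 1.89 (adjusted p = 0.0702), and it was called higher in 7 of 16 alternatives, among them the block (2.25, adjusted p = 1.95e-04). It was also called without the macrophage-like cluster led by Cd5l and Mmp12 (2.17, adjusted p = 0.00823). The same held without the cluster led by Lipg and Cxcl13 (2.05, adjusted p = 0.0192).

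Among the BH3-only genes, Bcl2l11 (chr2:128126038-128162547, plus strand) was higher in neutrophil-like, T cell-like and macrophage-like cells than in tumor-like cells. Neutrophil-like cells had 134, 119 and 67.2 CPM (95, 16 and 3 UMIs), T cell-like cells 71.2, 134 and 53.9 CPM, and macrophage-like cells 64.5, 62.0 and 63.4 CPM. Tumor-like cells had 8.44, 20.8 and 19.1 CPM (5, 32 and 74 UMIs), below these 3 classes in every tumor. The lone NK cell-like and plasma cell-like sums were higher still, at 413 CPM (72 UMIs) and 189 CPM (46 UMIs). In tumor-like cells Bcl2l11 was lower, at -2.02 (SE 0.58, adjusted p = 0.0118) and at -1.89 (SE 0.54, adjusted p = 0.0134) against the 7 classes. The call was lost in 4 of 17 alternatives, without tumor 1 (-0.56, adjusted p = 1), without tumor 2 (-2.22, adjusted p = 0.0601) and with limma on raw or corrected values.

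Bcl2l11 was also higher in neutrophil-like cells, by 1.42 (SE 0.47, adjusted p = 0.0490) and by 2.07 (SE 0.44, adjusted p = 0.00139) against the 7 classes. The first call was lost in 6 of 17 alternatives (adjusted p up to 0.303), among them those that left out tumor 2 (adjusted p = 0.110) and tumor 3 (adjusted p = 0.0696). In endothelial-like cells, at 21.4, 29.9 and 16.6 CPM, it was not called in the reported fit and was called lower in 5 of 17 alternatives, among them the block (-1.80, adjusted p = 0.0353, where 0.252% of all genes were lower and 13.6% higher).

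Pmaip1 was highest in the myeloid classes. Neutrophil-like cells had 102, 37.2 and 134 CPM (72, 5 and 6 UMIs) and macrophage-like cells 74.4, 19.1 and 32.4 CPM (453, 8 and 22 UMIs). Tumor-like cells held 2, 0 and 3 UMIs in all. Neutrophil-like cells were the highest class in all 3 tumors, although their range overlapped that of macrophage-like cells. Pmaip1 was higher by 4.19 (SE 0.69, adjusted p = 8.48e-05) in neutrophil-like cells and by 2.88 (SE 0.70, adjusted p = 0.00675) in macrophage-like cells, and against the 7 classes by 3.77 (SE 0.58, adjusted p = 3.74e-05) and 2.29 (SE 0.55, adjusted p = 0.00651). It was lower in tumor-like cells against the 7 classes (-4.26, SE 0.96, adjusted p = 0.00330). The macrophage-like call was lost in 3 of 17 alternatives, among them DESeq2 (2.37, adjusted p = 0.275).

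Bbc3 (chr7:16308393-16318205, plus strand) was spread over the classes. Tumor-like cells had 16.9, 42.8 and 37.2 CPM (10, 66 and 144 UMIs), T cell-like cells 20.3, 73.1 and 32.3 CPM, and macrophage-like cells 18.9, 26.2 and 14.7 CPM. The ranges of the 3 overlapped. Bbc3 was higher in tumor-like cells by 1.80 (SE 0.59, adjusted p = 0.0250), where the median of all genes tested stood at 0.67. The call was lost in 13 of 16 alternatives, among them the fit against the 7 classes (0.97, adjusted p = 0.0929), the block (1.47, adjusted p = 0.0597), DESeq2 (0.52, adjusted p = 0.558), and the fits without tumor 2 (adjusted p = 0.171) or tumor 3 (adjusted p = 0.245).

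Start sites of the members were searched for short motifs on both strands of the 250 bases before the start, in RefSeq windows of GRCm38.p6 that matched 9 of the 10 members in 14 windows. CACGTG, the E-box bound by MYC proteins with Max, occurred in 2 of the 14 windows, and 6.02% of the 32851 windows of all genes held it. The windows were those of Bbc3 and Bax. They are shown as 30 bases with the motif in capitals, because the transgene of these mice encodes a factor of that family.
Bbc3, chr7:16310355-16310384, plus strand, 64 bases before the start: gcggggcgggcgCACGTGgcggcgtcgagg
Bax, chr7:45466890-45466919, minus strand, 9 bases before the start: agcgatgatgatCACGTGactagtcctgcg
GGGCGG, a form of the Sp1 site, occurred in 10 of the 14 and in 32.7% of all windows. TATAAA (12.4% of all windows) and TTGCNNAA, a form of the C/EBP site (9.56%), occurred in 0. A form of the NF-kB site, GGG and TTTCC with any 2 bases between them, occurred in 3 of the 14, 1 window each of Mcl1, Bcl2l1 and Bbc3, and in 1.41% of all windows, while the windows of Bcl2a1b and Bcl2a1d did not hold it. These are matches of letters, and binding was not measured.

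**Figure D3:**
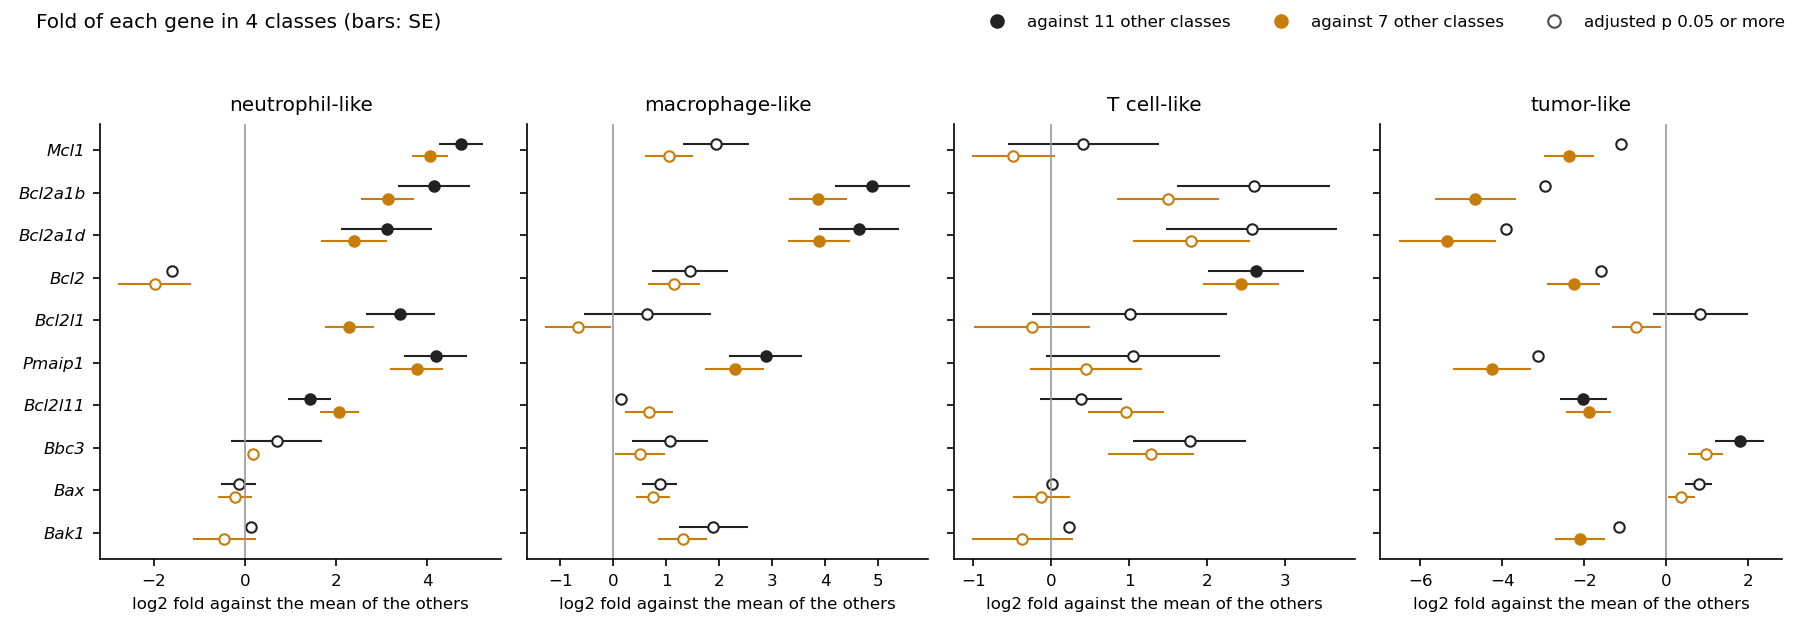
Log2 fold changes of the 10 genes in neutrophil-like, macrophage-like, T cell-like and tumor-like cells. Black points are against the mean of the 11 other classes and orange points against the 7 found in at least 2 tumors, with bars of 1 SE and open symbols where the adjusted p was 0.05 or more. In tumor-like cells 7 genes were lower by the orange points and 1 by the black ones.

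Counted by class, 12 of the 80 tests of members passed the threshold (11 higher, 1 lower) among 26 sums and 11097 genes. In neutrophil-like cells 6 of the 10 were higher (Mcl1, Bcl2l1, Bcl2a1b, Bcl2a1d, Pmaip1 and Bcl2l11) and 0 lower, where 12.9% of all genes were higher and 0.703% lower. Against the 7 classes, the 6 passed too, at backgrounds of 13% higher and 2.07% lower, and with the tumor as a block 6 did, at 16.3% and 1.25%. The median log2 fold change of the 10 was 2.26, against 0.32 over all genes tested. Both survival and death genes were among the 6.

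In macrophage-like cells 3 of the 10 were higher (Bcl2a1b, Bcl2a1d and Pmaip1), where 9.82% of all genes were higher and 0.018% lower, and the median was 1.67 against 0.57. Against the 7 classes, these 3 genes again passed, at backgrounds of 9.45% higher and 0.664% lower. With the block these were 7 of 10, Mcl1, Bcl2, Bax and Bak1 in addition, where 16.2% of all genes were higher and 0.153% lower. T cell-like cells had 1 of 10 (Bcl2), at backgrounds of 2.07% higher and 0% lower, with a median of 1.02 against 0.46. Against the 7 classes, Bcl2 again passed, at backgrounds of 2.15% higher and 0.225% lower, and with the block 3 of 10 did, at 3.93% higher and 0.0901% lower.

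In tumor-like cells 1 member was higher (Bbc3) and 1 lower (Bcl2l11), where 28.2% of all genes were higher and 0.829% lower. The median of the members was -1.36 against 0.67 over all genes. Against the 7 classes, 0 were higher and 7 lower (Mcl1, Bcl2, Bcl2a1b, Bcl2a1d, Bak1, Bcl2l11 and Pmaip1), where 15.4% of all genes were higher and 15.3% lower, and the median was -2.18 against -0.03. The 3 not called were Bcl2l1, Bax and Bbc3. With the block and all classes 1 was lower and 0 higher, at 0.982% and 30.7%. With DESeq2, which changes the scaling, the model of the spread and the test together, the split over all classes was 6 higher and 7 lower, all 7 of the lower calls being in tumor-like cells. Library sizes without TMM factors left 1 higher and 1 lower in tumor-like cells. With DESeq2 the median over all genes in tumor-like cells was -0.47 in place of 0.67.

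No member was called in B cell-like, CAF-like, endothelial-like or plasmacytoid dendritic-like cells, at backgrounds of 2.16%, 13.6%, 10.8% and 4.76% higher and 0.0541%, 0.0541%, 0.0901% and 0.0541% lower. Without adjustment, 1, 0, 1 and 0 of 10 had p under 0.05, and DESeq2 called 0 in each of the 4 classes. Other alternatives called 1 member in some of them. In B cell-like cells Bcl2l11 was lower with limma (-2.97, adjusted p = 0.0262, on raw sums) and Bcl2 higher with the block against the 7 classes (1.58, adjusted p = 0.00982). In CAF-like cells Bcl2l11 was lower with classes by markers alone (-2.51, adjusted p = 0.0156), and in endothelial-like cells in the 5 alternatives already counted. These classes rest on 2 or 3 sums of 15 to 204 cells.

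**Figure D4:**
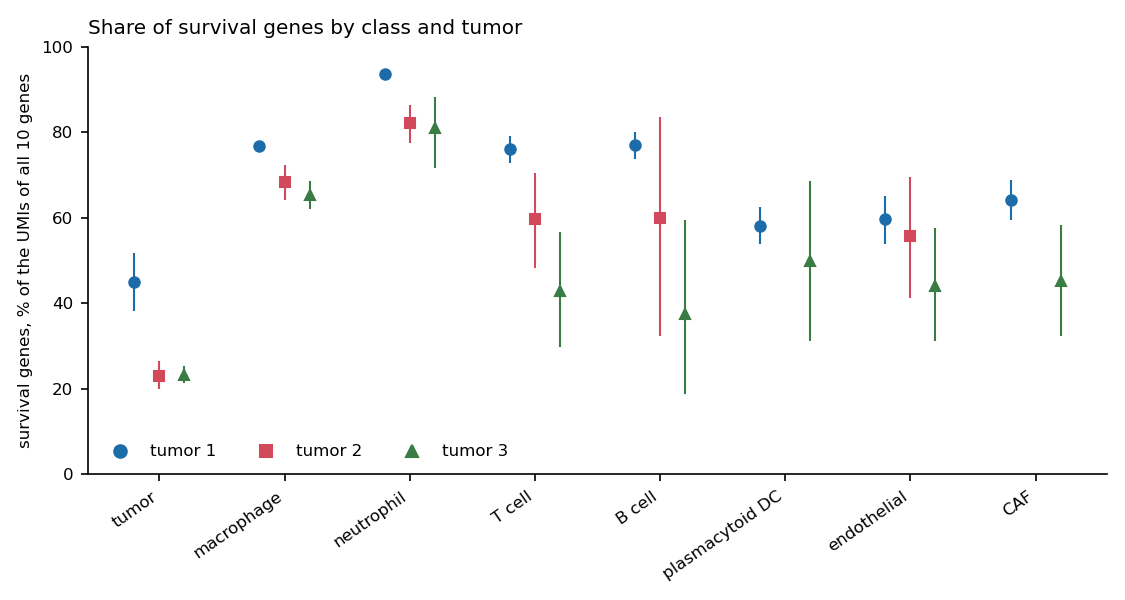
Share of survival transcripts by class and tumor. Points are the percent of the UMIs of all 10 genes that came from the 5 survival genes, and bars are exact binomial 95% intervals, which cover counting error only. Neutrophil-like cells stood at 81.1% to 93.7% and tumor-like cells at 23.1% to 45.0%. Mcl1 gave 94.8% of the survival UMIs of neutrophil-like cells.

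The balance of survival to death transcripts differed between the myeloid classes and tumor-like cells. Of the UMIs of all 10 genes, the survival genes gave 93.7%, 82.2% and 81.1% in neutrophil-like cells of tumors 1, 2 and 3, a mean of 85.6% ± 6.96 (SD, n = 3). In macrophage-like cells the values were 76.8%, 68.4% and 65.5%, and in tumor-like cells 45.0%, 23.1% and 23.3%, with exact binomial 95% intervals of 38.3% to 51.8%, 19.9% to 26.5% and 21.3% to 25.4%. The 3 classes did not overlap, either between tumors or within one. The neutrophil-like share is largely that of Mcl1, which gave 94.8% of the survival UMIs there, against 53.0% in macrophage-like cells. The order therefore holds for the sum with Mcl1, and the order of the other survival genes was not tested. The sum also pools genes that differ in capture, and A1 copies of uncertain counts. Other classes lay between or spread widely, such as T cell-like cells at 76.0%, 59.8% and 42.9% and B cell-like cells at 77.1%, 60% and 37.5%.

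Tumor 1, whose kept cells had the highest median of UMIs, had the highest share in each of the 6 classes found in all 3 tumors. Its tumor-like cells alone were of like depth, with 592143 UMIs in 320 cells against 1540302 in 782 and 3868090 in 2039. The part of depth in the share was not tested. No p is given for the share, since the members were chosen with earlier results known. Among the death transcripts, Bax made up 78.7% ± 2.56 (76.9% to 81.6%) in tumor-like cells, 56.0% ± 10.3 in macrophage-like cells and 35.02% ± 22.7 in neutrophil-like cells. In the latter Bcl2l11 gave 30.7% ± 14.6 and Pmaip1 25.8% ± 14.3, and in tumor-like cells these gave 5.42% ± 1.16 and 0.628% ± 0.895. In the NK cell-like and plasma cell-like sums Bcl2l11 gave 66.1% and 65.7%.

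The neutrophil-like and macrophage-like classes were compared directly. Between neutrophil-like and macrophage-like cells 1 of 10 members was higher, Mcl1, by 2.57 (SE 0.71, adjusted p = 0.0322), and 0 were lower, where 3.14% of all genes were higher and 2.53% lower in neutrophil-like cells. The call was lost in 5 of 18 alternatives, among them those that left out tumor 2 (2.71, adjusted p = 0.191) or tumor 3 (2.57, adjusted p = 0.153). The median of the members was -0.51 against -0.19 over all genes. With each tumor as a block, which the shared animal of the sums allows, 5 of 10 passed, at backgrounds of 6.21% higher and 5.81% lower.

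In that fit Mcl1 (2.30, adjusted p = 1.05e-04) and Bcl2l1 (2.47, adjusted p = 0.0114) were higher in neutrophil-like cells, and Bcl2 (-3.06, adjusted p = 0.00100), Bcl2a1d (-1.91, adjusted p = 0.0205) and Bak1 (-1.90, adjusted p = 0.0253) were lower. Survival genes thus stood on both sides. Without the block, Bcl2 stood at -2.80 (adjusted p = 0.0654) and Bcl2l1 at 2.54 (adjusted p = 0.0537).

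Between B cell-like and T cell-like cells 0 of 10 members were called, at backgrounds of 0.306% higher and 0.126% lower. Without adjustment 0 had p under 0.05, and DESeq2 and limma called 0. Bcl2 differed by -0.80 (adjusted p = 1). B cell-like sums of tumors 2 and 3 held 15 and 26 cells.

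**Figure D5:**
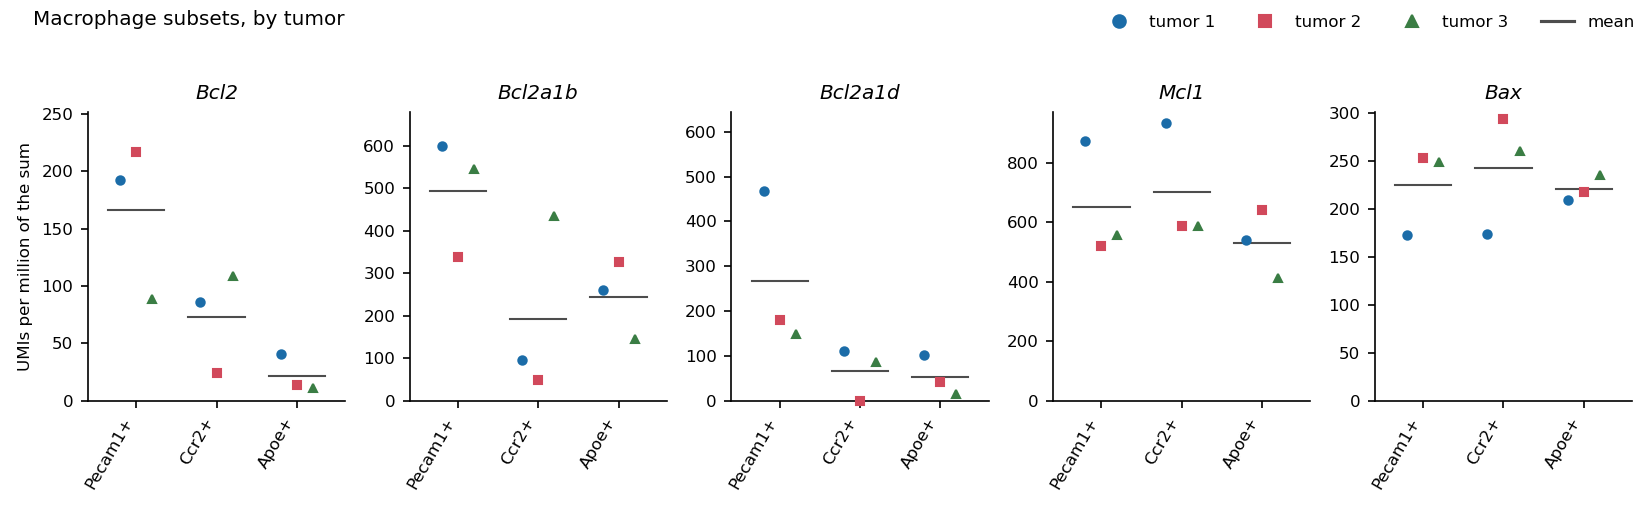
Levels of Bcl2, Bcl2a1b, Bcl2a1d, Mcl1 and Bax in 3 macrophage subsets. Points are CPM of the summed raw counts of a tumor (tumors 1, 2 and 3, linear axis). Bcl2 in Apoe+-like cells (10.7 to 40.5 CPM) lay below Pecam1+-like cells (88.9 to 217 CPM) in all 3 tumors.

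Macrophage-like cells clustered again gave Pecam1+-like (302 cells), Ccr2+-like (234) and Apoe+-like (174) subsets, which resemble patrolling monocytes, classical monocytes and tissue macrophages, while 141 and 92 cells stayed unnamed. Of the 10 leading genes of the 141 cells, 9 were higher in tumor-like cells. Both unnamed groups stay in the macrophage-like sums. Bcl2 was at 192, 217 and 88.9 CPM in Pecam1+-like cells, at 85.6, 24.5 and 108 CPM in Ccr2+-like cells and at 40.5, 13.6 and 10.7 CPM in Apoe+-like cells (72, 2 and 3 UMIs). Apoe+-like cells were the lowest in all 3 tumors, and the ranges of the other two overlapped. A subset was tested against the mean of the others over 9 sums and 3198 genes, which left 8 members, since Bcl2l1 and Bbc3 did not pass the filter on low counts.

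Of 24 tests 1 passed: Bcl2 was lower in Apoe+-like cells, at -1.996 (SE 0.50, adjusted p = 0.0321), where 3.25% of all genes were lower and 4.6% higher. The call was lost in 6 of 12 alternatives, among them those that left out any 1 tumor (adjusted p = 0.0940 to 0.188). In Pecam1+-like cells Bcl2 was at 1.75 (adjusted p = 0.0619), where 1.56% of all genes were higher and 0.844% lower. With the tumor as a block 5 tests passed. Pecam1+-like cells were then higher in Bcl2 (1.80, adjusted p = 4.59e-04), Bcl2a1d (2.14, adjusted p = 1.52e-04) and Bcl2a1b (1.32, adjusted p = 0.0212), at backgrounds of 10.2% higher and 4.91% lower. Apoe+-like cells were lower in Bcl2 (-1.89, adjusted p = 5.35e-04) and Bcl2a1d (-1.27, adjusted p = 0.0124), at backgrounds of 10.5% lower and 8.72% higher.

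Bcl2a1b was highest in Pecam1+-like cells of all 3 tumors. It was at 601, 338 and 546 CPM in Pecam1+-like cells, at 259, 327 and 146 CPM in Apoe+-like cells and at 96.4, 49.0 and 434 CPM in Ccr2+-like cells, where tumors 2 and 3 held 2 and 20 UMIs. The Pecam1+-like and Apoe+-like levels did not overlap, and the Ccr2+-like levels overlapped both. Mcl1 was at 872, 518 and 557 CPM in Pecam1+-like, 933, 588 and 586 CPM in Ccr2+-like and 539.8, 641 and 413 CPM in Apoe+-like cells, and these overlapped. In Ccr2+-like cells 0 members were called, at backgrounds of 0.219% higher and 0.25% lower, and DESeq2 called 0. Without adjustment 0 had p under 0.05.

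Other parts of the death pathway were measured by a list of 39 related genes, of which 31 passed the filter. In neutrophil-like cells 5 were higher: the A1 copy Bcl2a1a (5.01, adjusted p = 1.37e-05), Naip2 (4.95), the inhibitor of apoptosis Birc3 (3.75), the death receptor Fas (3.74) and Bid, the BH3-only link from death receptors. Fas was at 106 ± 46.2 CPM (SD, n = 3). In macrophage-like cells 3 were higher, Bcl2a1a (6.29, adjusted p = 1.41e-07, at 170 ± 41.1 CPM), Naip2 (5.12) and the mitochondrial protease Htra2 (2.12). Of all genes, 12.9% were higher in neutrophil-like and 9.82% in macrophage-like cells, so that 5 and 3 of the 31 lie near these shares. Bcl2a1a shares the sequence problem of the other A1 copies, and Naip2 has close relatives beside it in the genome, so that its counts are uncertain too. The Bcl2a1a calls in both classes held in all 17 alternatives, as did that of Fas.

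In tumor-like cells 9 related genes were higher, led by the neuronal BH3-only gene Hrk (3.26, adjusted p = 0.00632, at 57.3 ± 11.9 CPM), the Bax relative Bok (2.94), the BH3-only gene Bik (2.82) and the mitotic inhibitor of apoptosis Birc5 (2.32), beside a median of 0.67 over all genes. These are 9 of the 31 tested, a share near the 28.2% of all genes that were higher in this contrast. Hrk kept its call in 13 of 16 alternatives, Bok in 5 of 17, Bik in 2 of 11 and Birc5 in 7 of 17. In endothelial-like cells 4 were higher, among them Bik (5.74), the death receptor Tnfrsf10b (5.12) and the survival gene Bcl2l2 (2.57). There 10.8% of all genes were higher. CAF-like cells had 1 higher (Tnfrsf10b, 3.14) and 1 lower (Fbxw7, which marks Mcl1 for degradation, -1.70). The backgrounds there were 13.6% higher and 0.0541% lower.

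Within tumor-like cells, clusters are named here by their leading genes and were not tested against each other. Bax was at 109.9 to 193 CPM in tumor 1 over the 5 clusters with at least 20 cells in every tumor and at 193 to 298 CPM in tumors 2 and 3, and tumor 1 was the lowest in each of the 5. Bbc3 was at 58.5 and 45.2 CPM (15 and 28 UMIs) in tumors 2 and 3 in the cluster led by Cyb561, Chga and Chgb, which held 1 Bbc3 UMI in tumor 1. The cluster led by Cartpt, Ppp1r17 and H1fx had 42.5 and 35.5 CPM (11 and 49 UMIs) there, and 2 UMIs in tumor 1. Bcl2l11 was highest in tumors 2 and 3 in the cluster led by C130073E24Rik and Pde10a, at 39.5 and 38.9 CPM (17 and 22 UMIs). In tumor 1 it held 3 Bcl2l11 UMIs, too few for an order to be read. The Cyb561 and Pde10a clusters hold 21 and 24 cells there, of unlike depth, with 18202 and 171600 UMIs. No cluster carried enough cycling markers to be set apart, so that cycling and other tumor-like cells were not compared.

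Over the 26 sums, the genes whose log2 CPM was most like a member's were listed as a description; sums of 1 class share cells of a type and sums of 1 tumor share a library. For Mcl1 they were Cdk2ap2 (Pearson's r = 0.941), Ccnl1 (0.930) and Ptpn1 (0.928), and for Pmaip1 Ccrl2 (0.932), Ncf4 (0.922) and Rab20 (0.921). The gene most like Bcl2 was Il2rg (0.868), the common chain of several interleukin receptors. Bcl2a1b and Bcl2a1d were most like each other (0.929), and the part of their shared sequence in this was not tested. Between members, Mcl1 and Pmaip1, a survival gene and the gene of its own antagonist, had an r of 0.806.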

How the data were processed

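Whole tumors of 3 TH-MYCN mice were profiled with a 3′ droplet kit. The authors deposited raw counts of UMIs per gene and barcode and, for the cells they kept, normalized values on a natural log scale (log of a corrected count plus 1). Per the labels, reads were processed with Cell Ranger 3.1.0 on mm10, and Seurat 3.1.5 was used. The authors had taken out ambient RNA, doublets and, by limits of each tumor, poor barcodes. The correction tool is not given in the sources used here, and the correction left 46.3% to 55.5% of the kept cells' UMIs. The normalized values defined the kept cells and served 1 alternative. Everything else used raw counts, which still hold free RNA.

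The members and the gene lists were chosen with earlier results of these data known. Cells were clustered with Seurat 5.3.0 in R 4.3.3 (2000 variable genes without 59 genes of the lists, 30 dimensions, 20 neighbors, resolution 1), and no further doublets were removed. A cluster was named when at least 3 markers of a type had a fold of at least 2 and a UMI in at least 10% of its cells. A macrophage subcluster with at least 5 of its 10 leading genes higher in tumor-like cells stayed unnamed, a rule set after seeing the data.

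Sums of at least 10 cells were tested with edgeR 4.0.16 (TMM factors, its filter on low counts, quasi-likelihood tests, prior count 0.125), adjusted by Benjamini-Hochberg over all genes, threshold 0.05. The SE is the log2 fold change divided by the square root of F. A class with 1 sum is taken to vary as the rest do. P-values rest on the spread of sums around the mean of their class, shared over all classes. Except with the block, the sums are treated as independent. All 10 members are named in every comparison, and of the related genes up to 4 with the largest fold per comparison. Classes of a tumor come from 1 animal and are paired. Over 11097 genes and 6 classes, deviations from class means correlated at 0.00558 to 0.616 within tumors (median 0.227, 45 pairs) and at -0.442 to 0.223 between tumors (median -0.173, 90 pairs). For likeness, Pearson's r of log2 CPM with a prior count of 2 was used.

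Of the symbols, 30464 (98.1%) were found in GENCODE M21 (GRCm38), the source of coordinates and exons. Windows before start sites are RefSeq's of GRCm38.p6. Intervals at 95% and floors of 3 counts cover counting error only. Alternatives were DESeq2 1.42.0, limma 3.58.1, library sizes without TMM factors, no filter on low counts, sums of at least 20 cells, other resolutions, classes by markers alone, the replicate block, leaving out each tumor, 2 macrophage-like clusters or the classes with 1 sum, and thinning to 1000 UMIs or none. The test was also run on simulated counts, drawn independently for each sum with 1 fixed spread and no tumor effect. That run cannot judge how the test handles paired sums. Human samples are not analysed here.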

Additional observations from a re-analysis of the deposited data

Results flagged for a closer look

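The barcodes that the authors left out hold UMIs of all 10 members and enter no comparison above. Over the 3 tumors they carried 3219 UMIs of Mcl1, 1004 of Bcl2, 628 of Bcl2l1, 314 of Bcl2a1b and 143 of Bcl2a1d, the survival genes. Of the death genes they carried 5172 UMIs of Bax, 276 of Bak1, 636 of Bcl2l11, 53 of Pmaip1 and 724 of Bbc3. Their median mitochondrial share was 27.9%, 34.99% and 37.7% in tumors 1, 2 and 3, against 3.17%, 3.13% and 2.44% in kept cells. Per 1000000 UMIs of nuclear genes, Mcl1 was at 232, 91.2 and 117 in the left-out barcodes and at 755, 245 and 150 in kept cells. Bcl2 was at 165, 14.3 and 15.2 in the left-out barcodes, and at 98.7, 32.1 and 17.9 in kept cells, so that the order was turned in tumor 1.

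A cluster of 342 kept cells led by Gm26917, Chga, Scg3 and Gata2 took no name and entered no sum. It held 144 UMIs of Mcl1, 35 of Bcl2, 6 of Bcl2l1, 7 of Bcl2a1b, 106 of Bax, 6 of Bak1, 18 of Bcl2l11, 5 of Pmaip1 and 25 of Bbc3. All of these are over the limit of 3 counts that 0 would allow. Tumor 1 gave 116 of the 342 cells, but 110 of the Mcl1 and 32 of the Bcl2 UMIs. At a resolution of 1.5 a cluster led by Gm26917, Chga and Scg3 was named tumor-like. Another cluster of 72 cells, led by Cyp11a1, Ms4a2, Alox15 and Ccr3, stayed unnamed there, with 68 cells of tumor 1. How the 342 cells divide between these clusters was not traced. No group had enough samples for a check of single samples far from the rest, since each has at most 3.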

How the results depend on the processing

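Against 12 calls of members by class, 17 were made against the 7 classes found in at least 2 tumors. With these and the replicate block together there were 24, with the replicate block alone 18 and with limma on the raw sums 6. Leaving out a tumor gave 8 to 12, in part from fewer tests. Without tumor 1 only 6 members passed the filter. Without tumor 1 or without tumor 3, CAF-like and plasmacytoid dendritic-like cells were not tested. The call of Mcl1 and Pmaip1 in neutrophil-like cells and of Bcl2a1b in macrophage-like cells was kept in every alternative run. In macrophage-like cells 3 calls became 5 without the cluster led by Cd5l and Mmp12, and 5 without that led by Lipg and Cxcl13. Between neutrophil-like and macrophage-like cells 1 member was called. There were 2 without TMM factors, with sums of at least 20 cells, with the classes that have 1 sum left out, and without the cluster led by Lipg and Cxcl13. There were 3 with classes by markers alone, without the filter on low counts and without the cluster led by Cd5l and Mmp12, 5 with the replicate block (with all classes or with 8), and 0 with only the sums of both classes. Leaving out a tumor gave 0 to 3. In the macrophage subsets 1 call became 5 with the replicate block, 3 at a resolution of 0.8, 2 without TMM factors, and 0 with the corrected values, with limma, with sums of at least 20 cells and without any 1 tumor (0 to 0). The share of neutrophil-like cells with an Mcl1 UMI, 61.8% when thinned to 500, was 87.6% at 1000 and 90.02% without thinning. The cause of these changes was not tested, apart from the thinning itself. Of the 14 member results with a call, 0 changed sign under an alternative, with 177 values that kept the call and 51 that lost it. Of the 110 without a call, 53 changed sign in at least 1 alternative, never with a call, and 96 of their 1632 values gained a call. In T cell-like cells, for example, Mcl1 was at 0.41 against all classes and at -0.49 against the 7. The alternatives without the classes that have 1 sum, without TMM factors, with limma on raw sums and without either macrophage-like cluster were chosen after seeing the data. The comparison of cycling tumor-like cells was not run, for want of such a cluster. Depth limits the rare classes, whose sums are as small as 23655 UMIs.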
